A study of Mus musculus with 21 samples.

Results

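The genes described here are 10 members of the BCL2 family of cell death regulators, namely Bcl2l1, Mcl1, Bcl2, Bax, Bak1, Bcl2l11, Bbc3, Bmf, Bad and Bid. They were chosen by name, as every probe that the array annotation assigns to 1 of these symbols. Of the 10, 9 had probes and were tested, among 11442 genes in all, and Bax was not analysed here. The 9 genes were read by 26 of the 45281 probes, of which 17 passed the detection filter. Liver RNA had been taken from 3-month-old female CD-1 mice, an outbred strain, and hybridised to Illumina mouse beadchips with 1 array per mouse. Livers were collected 1, 3 or 6 h after partial hepatectomy (PH), in which 70% of the liver mass is removed, or at the same times after a single gavage of 3 mg/kg TCPOBOP (TCP) in dimethyl sulphoxide and corn oil. Untreated mice (time 0) were the controls, and each of the 7 groups held 3 mice. TCP is an agonist of the nuclear receptor CAR that makes hepatocytes divide without prior tissue loss, so the design sets regeneration after surgery beside a direct mitogen. No sham-operated mice, no mice given the vehicle alone and no controls taken at the later times were among the arrays, so that surgery, anaesthesia, vehicle and hour of the day cannot be told apart from the treatments.

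BCL2 proteins decide whether the outer membrane of the mitochondria stays closed or is opened, the step that releases cytochrome c and starts the caspases. The survival proteins (BCL-XL from Bcl2l1, MCL1, BCL2) hold the pore-forming effectors BAX and BAK in check, and the BH3-only proteins (BIM from Bcl2l11, PUMA from Bbc3, BMF, BAD, BID) either block the survival proteins or switch the effectors on. In hepatocytes BCL-XL and MCL1 are the survival proteins on which the cells are known to depend, and BID links the death receptors of the cell surface to the mitochondria.

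All values below are log2 intensities after background correction with an offset of 16 and quantile normalisation, and each difference is given as a log2 fold change with its standard error (SE) from 1 limma model over the 21 arrays. To be called, a gene needed an adjusted p (Benjamini-Hochberg, over all 11442 genes) under 0.05 and had to change 1.5-fold or more. A probe was detected on an array where its deposited detection p-value was under 0.05, and 15982 to 17973 probes were detected per array. The background lies near 4.5 on this scale, so that a fold change of a gene close to it is compressed. There were 4 beadchips: number 1 carried control replicate 1 with TCP arrays of 3 and 6 h, number 2 carried TCP arrays alone, number 3 control replicate 2 with PH arrays of 1 and 3 h, and number 4 control replicate 3 with PH arrays of 3 and 6 h and 1 TCP array of 1 h. For this reason the text adds the values of a model with a term for the beadchip (a block), and those within 1 beadchip against its only control. PH 3 h replicate 2 correlated no better with its own group than with the controls, at 0.9721 and 0.9728 over all tested genes. The PH 6 h arrays correlated less with each other (0.9636 to 0.9657), but less still with the controls (0.9302 to 0.9603). Each 3 h result of a member that turns on PH 3 h replicate 2 is given without it.

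The tissue was liver by its markers: all 6 hepatocyte markers (among them Alb and Ttr) were detected, and their summed linear intensity was 108000 to 132000 on the PH arrays of 3 and 6 h against 105000 to 138000 on the control arrays. The summed level of the neutrophil markers rose with PH. After PH their summed intensity was 363 to 2260, 1240 to 2540 and 604 to 965 at 1, 3 and 6 h, and it was 256 to 554, 248 to 538 and 244 to 291 at these times after TCP, against 178 to 211 in the controls. Of the 9 neutrophil markers 7 were tested, of which 3 rose and 4 were not called at 3 h after PH (3.92% of all genes called higher). Ngp and Mmp8 did not pass the detection filter. Macrophage markers summed to 795 to 1430 at 6 h after PH and 1500 to 3490 at 6 h after TCP, against 1260 to 1680 in the controls. Summed markers of sinusoidal endothelium were 2680 to 6350 and those of stellate cells 3210 to 5810 at 6 h after PH, against 4850 to 5690 and 3750 to 4740 in the controls. Red blood cell markers summed to 11300 to 29300 at 6 h after PH and 7450 to 11300 at 3 h after TCP, against 23400 to 40800 in the controls. Cd8a and Ncr1 (T and NK cells) and Epcam (biliary cells) were detected on no array. The arrays measured whole tissue, in which fewer cells of a type and less RNA per cell cannot be told apart, and the part of these other cells in the results below was not tested.

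The promoters of 4 members that changed are shown first, since transcription factors listed further below are known to act on genes of this family and their motif letters can be looked for there. They are RefSeq windows of build GRCm38.p6, from 250 bases before to 50 bases after an annotated start, read 5′ to 3′ on the strand of the gene, and all 10 members have at least 1 such window (18 in all). Capitals mark a match, on either strand, to 1 of 6 motifs: STAT (TTCNNNGAA), AP-1 (TGANTCA), E-box (CACGTG), FOXO (TGTTTAC), CRE (TGACGTCA) and NF-kB (GGNNTTTCC). No matches overlapped in the windows shown. Bcl2l1 window 2 lies at chr2:152830668-152830967 (minus strand), Bcl2l11 window 1 at chr2:128125788-128126087 (plus strand), Bbc3 window 2 at chr7:16310011-16310310 (plus strand) and Bmf window 1 at chr2:118549637-118549936 (minus strand).
Bcl2l1 window 2: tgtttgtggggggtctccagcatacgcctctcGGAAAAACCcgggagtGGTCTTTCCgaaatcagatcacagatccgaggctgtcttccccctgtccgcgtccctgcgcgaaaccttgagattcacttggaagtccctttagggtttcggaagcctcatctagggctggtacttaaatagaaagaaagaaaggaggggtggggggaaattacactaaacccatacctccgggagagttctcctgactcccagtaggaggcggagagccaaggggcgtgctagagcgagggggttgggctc
Bcl2l11 window 1: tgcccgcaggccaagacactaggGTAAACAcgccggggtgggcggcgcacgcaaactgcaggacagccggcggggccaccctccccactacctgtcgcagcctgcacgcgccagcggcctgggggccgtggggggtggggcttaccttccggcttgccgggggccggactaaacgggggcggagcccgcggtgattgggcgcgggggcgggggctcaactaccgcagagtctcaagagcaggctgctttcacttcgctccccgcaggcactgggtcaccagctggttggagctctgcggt
Bbc3 window 2: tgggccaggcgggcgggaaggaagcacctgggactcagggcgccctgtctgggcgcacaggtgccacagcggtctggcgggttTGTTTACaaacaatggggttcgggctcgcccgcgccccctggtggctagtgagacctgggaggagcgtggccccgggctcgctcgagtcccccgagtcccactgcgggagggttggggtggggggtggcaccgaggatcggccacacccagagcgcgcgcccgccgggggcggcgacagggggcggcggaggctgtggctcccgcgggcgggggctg
Bmf window 1: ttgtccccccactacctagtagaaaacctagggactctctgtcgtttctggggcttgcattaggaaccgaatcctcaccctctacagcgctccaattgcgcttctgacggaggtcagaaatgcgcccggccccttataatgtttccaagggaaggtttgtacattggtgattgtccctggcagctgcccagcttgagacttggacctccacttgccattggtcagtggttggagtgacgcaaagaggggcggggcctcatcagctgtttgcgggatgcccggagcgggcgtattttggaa

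The capitals in the Bcl2l1 window are NF-kB matches that begin 218 and 202 bases before the start, and those in the Bcl2l11 and Bbc3 windows are FOXO matches that begin 227 and 167 bases before it. The Bmf window held none of the 6 motifs, nor did the other windows of that gene, windows 1 and 3 of Bcl2l1 or window 2 of Bcl2l11. Mcl1 had an NF-kB match 28 bases before its start, and further windows of Bbc3 had an NF-kB match at 136 and an E-box at 64 bases before theirs. Over the 32851 windows of all genes, the NF-kB letters occurred in 5.82%, FOXO in 3.65%, E-box in 7.15%, STAT in 8.3%, AP-1 in 7.81% and CRE in 1.79%. In 7 of the 18 windows of the family at least 1 of the motifs was found, with no STAT, AP-1 or CRE match in any of them. The 7 include the window of Bax, with E-box matches. The share of all windows with at least 1 of the 6 motifs was not counted, so the 7 of 18 has no background beside it. The member windows had a GC content of 49.3% to 78%, against a median of 52.7% over all windows. A match is a run of letters and not evidence that a factor binds there.

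**Figure D1:**
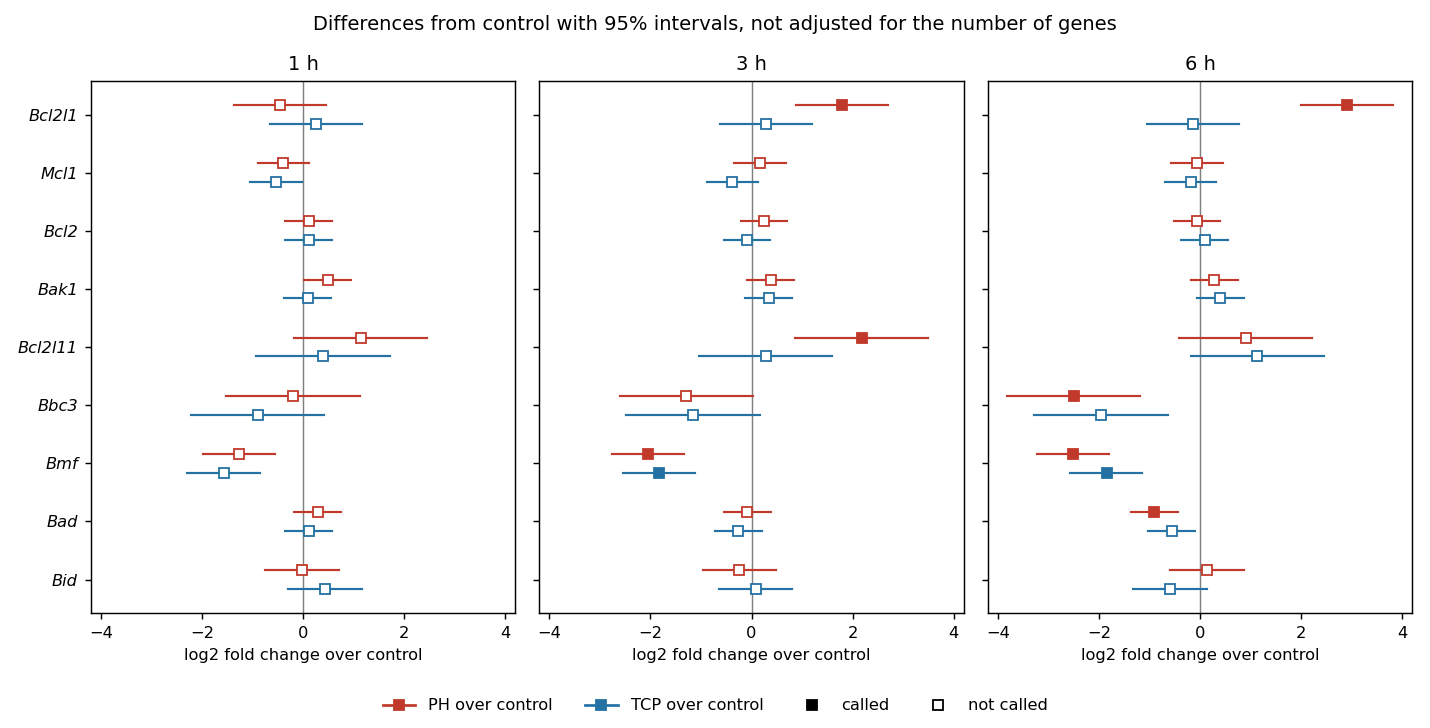
Log2 fold change over control (x axis) of the 9 tested members (rows) at 1, 3 and 6 h, with PH in red above TCP in blue, squares for the estimates of 3 mice against 3 and lines for 95% intervals that are not adjusted for the number of genes. Filled squares are called. Right of 0 these are Bcl2l1 at 3 and 6 h and Bcl2l11 at 3 h after PH. Left of 0 they are Bad and Bbc3 at 6 h after PH and Bmf at 3 and 6 h in both treatments.

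After PH the family moved in both directions, and after TCP 1 member was called. At 1 h after PH 0 of the 9 members were called by limma (0.533% of all genes), with 2 at an unadjusted p under 0.05. At 3 h 3 of 9 were called (7.44% of all genes): Bcl2l1 and Bcl2l11 rose (3.92% of all genes were called higher) and Bmf fell (3.52% called lower). At 6 h 4 of 9 were called (20.7% of all genes): Bcl2l1 rose (8.79% called higher), and Bad, Bbc3 and Bmf, all BH3-only genes, fell (11.9% called lower). At 1 h after TCP 0 of 9 were called (0.14% of all genes), with 2 at an unadjusted p under 0.05. At 3 h after TCP 1 of 9 was called (1.03% of all genes, 0.586% called lower) and at 6 h 1 of 9 (5.65%, with 2.94% called lower), and both times the gene was Bmf. The median change of the 9 members was 0.17 and -0.06 at 3 and 6 h after PH, beside -0.05 and -0.08 over all genes tested, and -0.09 and -0.19 at 3 and 6 h after TCP, beside -0.02 and -0.02. The comparisons with control share the same 3 control livers.

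**Figure D2:**
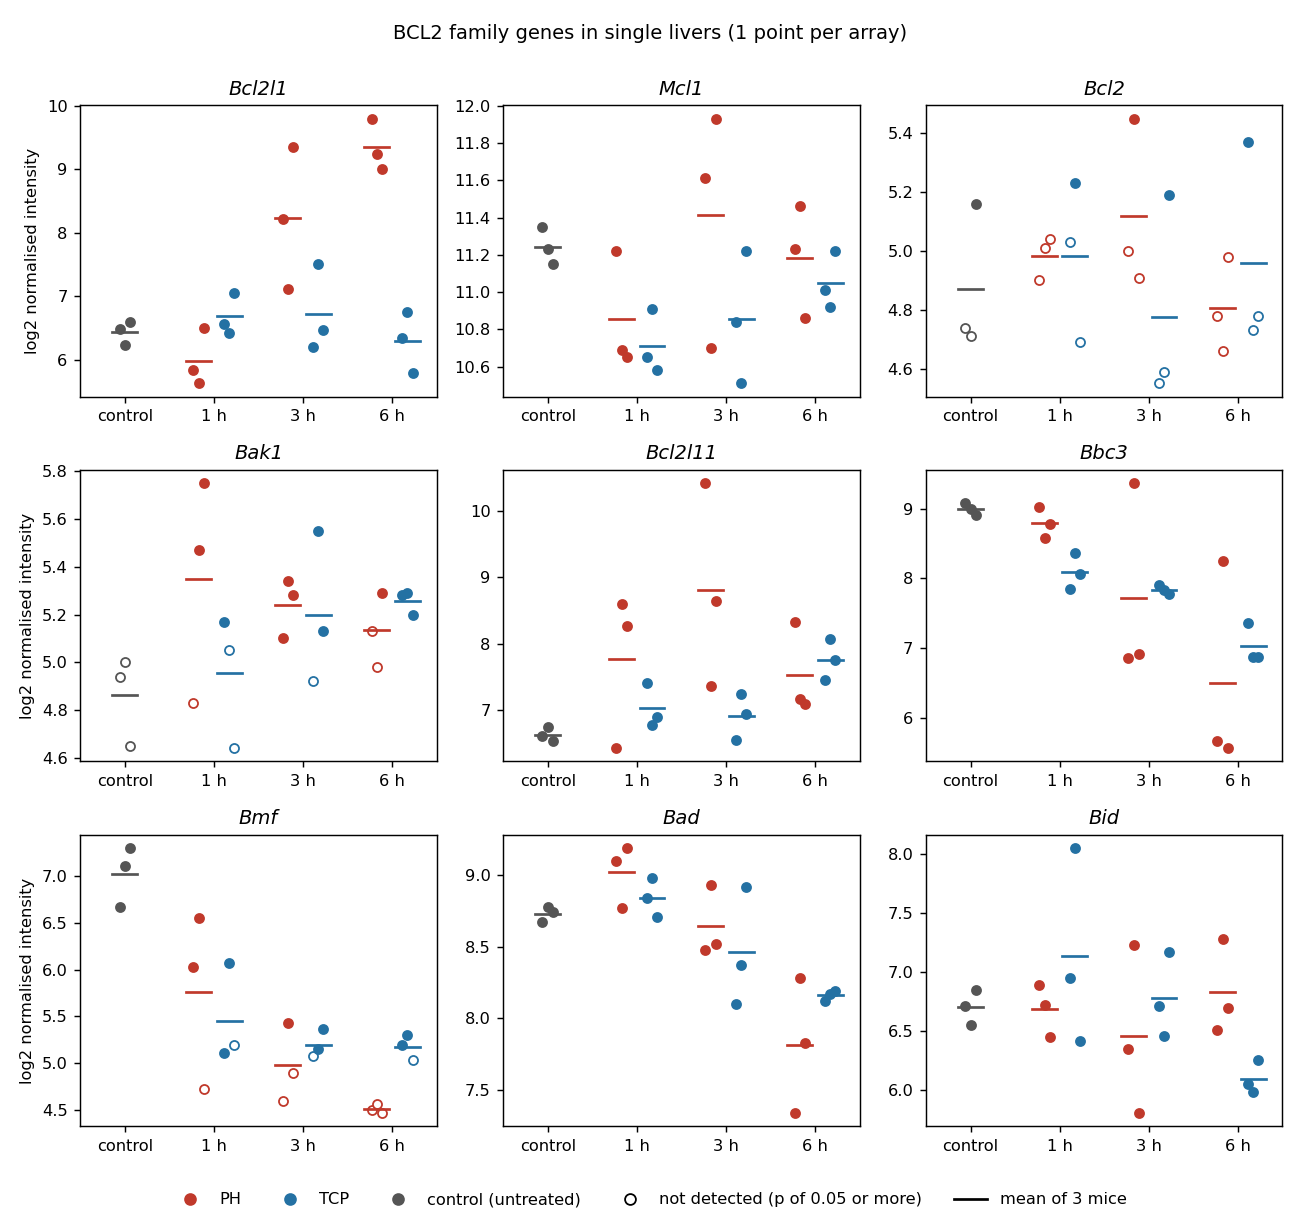
Log2 normalised intensity (y axis, a separate scale per gene) of each tested member on each array, by hours after PH (red) or TCP (blue) with the untreated controls in grey. Points are single mice, open points are arrays on which the probe was not detected, and bars are means of 3 mice; the 3 Bmf points at 6 h after PH are all open and below 4.6.

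Among the survival genes of the 9 members, Bcl2l1 was the one called. Its brightest probe (ILMN_2698430) read 9.80, 9.24 and 9.0 at 6 h after PH, against 6.49, 6.24 and 6.59 in the control livers. At 3 h after PH it read 8.22, 7.12 and 9.35, and at 1 h 5.84, 5.63 and 6.50. Every liver of 3 and 6 h after PH was thus above every control, PH 3 h replicate 2 by the least, whereas those of 1 h overlapped the controls. Bcl2l1 rose by 1.79 at 3 h (3.47-fold, SE 0.44, limma adjusted p = 0.0156) and by 2.91 at 6 h (7.49-fold, SE 0.44, limma adjusted p = 0.000136). In the model with a beadchip term the changes were 1.92 (adjusted p = 0.0140) and 2.24 (adjusted p = 0.00571). Within beadchip 4 they were 2.76 and 2.75 (adjusted p = 0.194 and 0.0858), and within beadchip 3 the 3 h change was 1.43 (adjusted p = 0.505). The 6 h call held in all 6 fits that left out 1 array (2.68 to 3.08), but the 3 h call held in 2 of 6: it was lost without control replicate 1 (1.82, limma adjusted p = 0.0549), control replicate 2 (1.69, 0.0703), PH 3 h replicate 1 (1.80, 0.0558) or PH 3 h replicate 3 (1.23, 0.110). When replicate 2 of PH 3 h was left out, the change was 2.35. The 3 h call was also lost when the 6 arrays of PH 3 h and control were fitted alone (1.79, limma adjusted p = 0.0829).

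After TCP Bcl2l1 read 6.57, 6.43 and 7.06 at 1 h, 6.20, 7.51 and 6.47 at 3 h, and the 6 h livers read 6.34, 6.76 and 5.79. These livers overlapped the controls at every time, and the changes were 0.25, 0.28 and -0.14 (SE 0.44 each), none called. Set directly against TCP, the PH livers were higher by 3.05 at 6 h (8.27-fold, SE 0.44, limma adjusted p = 0.000139, 3 of 3 PH livers above all 3 TCP livers). This was the only 1 of the 9 members called between the treatments at 6 h, where 10.1% of all genes were called and 4.65% were higher after PH. With the beadchip as a block the difference was 2.25 and was not called (adjusted p = 0.163). PH and TCP livers of 1 time shared no beadchip, so no value within a beadchip exists for it. At 3 h the difference was 1.51 (adjusted p = 0.0552), and it was called without PH 3 h replicate 2 (2.06, limma adjusted p = 0.00228) or TCP 3 h replicate 2 (1.90, 0.0211). At 1 h it was -0.70 (adjusted p = 0.707).

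There were 4 probes with the symbol Bcl2l1, and all passed the detection filter, on 21, 14, 9 and 5 arrays. When every probe was tested by itself, 4 of 4 were called higher at 6 h after PH (8.41% of the 17970 probes tested) and 3 of 4 at 3 h (3.19%). ILMN_2742557 read 7.61, 6.57 and 6.61 at 6 h after PH against 5.11, 4.79 and 5.16 in the controls, a change of 1.91 (limma adjusted p = 0.000128). ILMN_2647885 read 7.89, 7.12 and 6.70 against 4.83, 4.86 and 5.31, a change of 2.24 (limma adjusted p = 0.000983), and at 3 h it changed by 0.96 and was not called (adjusted p = 0.213). The dimmest, ILMN_1255430, was detected on 0 of 3 control arrays and was higher at 6 h after PH (limma adjusted p = 0.0324). With the controls set no lower than the lowest detected signal, the estimate was 1.13-fold. The rise of this probe was not called with the beadchip as a block (adjusted p = 0.308), while those of the other 3 probes were. Between PH and TCP at 6 h 3 of the 4 probes were called higher (4.02% of all probes), ILMN_1255430 being the exception (adjusted p = 0.231), and with the beadchip as a block 0 of 4 were called (adjusted p of 0.0858 to 0.924). The probes are separate readings of the same RNA in the same mice, not further replicates.

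**Figure D3:**
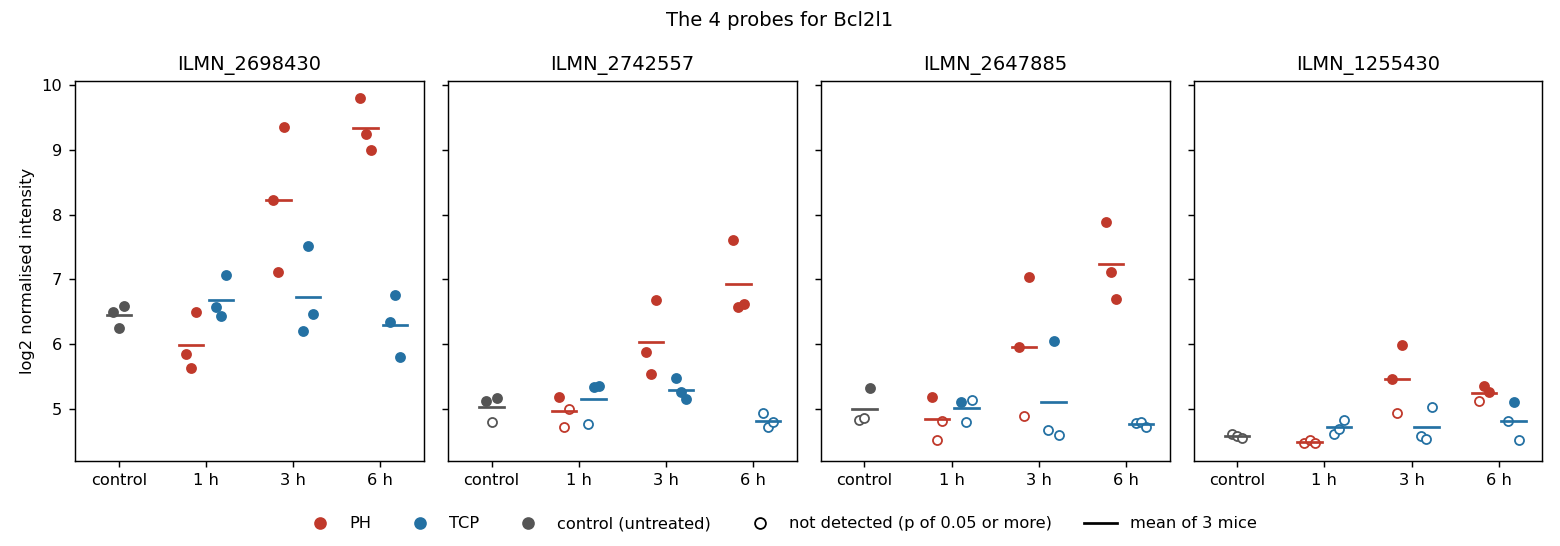
Log2 normalised intensity (y axis, 1 scale for all panels) of the 4 Bcl2l1 probes, from the brightest (left) to the dimmest (right), on each array by hours after PH (red) or TCP (blue), with controls in grey, open points for arrays without detection and bars for means of 3 mice. In every panel the 3 PH livers of 6 h lie above the 3 controls.

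Mcl1, which encodes the short-lived survival protein on which adult hepatocytes also depend, was called in no comparison. Its single probe read 11.23, 11.46 and 10.86 at 6 h after PH and 11.61, 10.70 and 11.93 at 3 h, against 11.35, 11.23 and 11.15 in the controls. The livers overlapped the controls at all 3 times after PH, and the changes were -0.39, 0.17 and -0.06 at 1, 3 and 6 h (SE 0.25 each). The 95% interval at 6 h was -0.57 to 0.45, so a change of the size seen for Bcl2l1 lies outside it. At 1 h after TCP the 3 livers read 10.65, 10.91 and 10.58, all below the controls, but the change of -0.53 was not called (adjusted p = 0.613). At 3 h after PH the group split, with replicates 1 and 3 above every control and replicate 2 below them. Without that replicate Mcl1 was called higher after PH than after TCP (0.91, limma adjusted p = 0.0116), against 0.56 with it (adjusted p = 0.225).

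Bcl2, the founding member of the family, was close to background. Of its 9 probes 1 passed the filter (ILMN_1249021, detected on 5 of 21 arrays), and the other 8 were detected on 0 to 2 arrays each. The passing probe ranged between 4.55 and 5.45 over all arrays, and its changes from control lay between -0.09 and 0.25 (SE 0.22), none called. At this signal a change could have been missed.

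Of 16 further relatives of the family listed 9 were tested, and the calls were 2 of 9 at 3 h (7.44% of all genes) and 3 of 9 at 6 h (20.7%) after PH, and after TCP 0 of 9 at every time (0.14%, 1.03% and 5.65% of all genes at 1, 3 and 6 h). Bcl2a1b and Bcl2a1d, copies of the A1 survival gene that is used by leukocytes, rose 3 h after PH, with changes of 1.25 (SE 0.31, limma adjusted p = 0.0168) and 1.63 (SE 0.41, limma adjusted p = 0.0175). These 2 copies are nearly identical in sequence, so their probes may read the same RNA, and among the 7 neutrophil markers tested, whose median change at that time was 0.67, 3 were called, S100a8 and S100a9 by 4.70 and 4.52. Bcl2l2, which encodes BCL-W, fell at 6 h after PH (-0.61, SE 0.15, limma adjusted p = 0.00594). Leaving out 1 array ended the call of Bcl2a1b for control replicates 2 and 3 and PH 3 h replicate 1 (1.12 to 1.25, limma adjusted p of 0.0610 to 0.0892), as did the beadchip term (1.28, 0.0502), and that of Bcl2a1d for these and PH 3 h replicate 3 (1.33 to 1.63, 0.0678 to 0.0941). Without control replicate 3 or PH 6 h replicate 1 the change of Bcl2l2 was below 1.5-fold (-0.57 to -0.54).

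For the effectors, only Bak1 could be read, and it was dim. It was detected after PH on 2, 3 and 1 of 3 arrays at 1, 3 and 6 h, on 1, 2 and 3 of 3 at these times after TCP, and on 0 of 3 control arrays. At 3 h after PH it read 5.10, 5.34 and 5.28, and at 6 h after TCP 5.28, 5.29 and 5.20, against 4.94, 5.0 and 4.65 in the controls. Both groups lay above every control, but the changes of 0.38 and 0.40 (SE 0.23) were not called (adjusted p = 0.367 and 0.347). The controls were not well above background. With the controls set no lower than the lowest detected signal, the estimates were 1.13-fold and 1.14-fold, without an error of their own. Bok, a relative that resembles the effectors, fell by 0.82 at 6 h after PH (SE 0.23, limma adjusted p = 0.0122), and leaving out either control replicate 3 or replicate 1 of PH 6 h ended this call (-0.68 to -0.57, limma adjusted p of 0.0680 to 0.0934).

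The BH3-only genes split. Bcl2l11, which encodes BIM, the BH3-only protein that binds all the survival proteins, was higher at 3 h after PH, whereas Bmf, Bbc3 and Bad were lower at 3 or 6 h. Bcl2l11 (ILMN_3157568) read 10.42, 7.36 and 8.64 at 3 h after PH, against 6.60, 6.74 and 6.52 in the controls. At 1 h after PH it read 6.42, 8.60 and 8.27, and at 6 h 8.33, 7.16 and 7.09. All livers of 3 and 6 h were above the controls, replicate 1 of 3 h by far the most, while 1 liver of 1 h was below them. The rise at 3 h was 2.18 (4.54-fold, SE 0.62, limma adjusted p = 0.0424), and the changes at 1 and 6 h were 1.14 and 0.90 (adjusted p = 0.563 and 0.330).

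That call had the highest adjusted p among the calls of the members. It held in 1 of the 6 fits that left out 1 array, the one without PH 3 h replicate 2 (2.91), and was lost without any control replicate (2.13 to 2.24, with limma adjusted p of 0.107 to 0.121), without PH 3 h replicate 1 (1.37, 0.166) and without PH 3 h replicate 3 (2.27, 0.123). It was also lost without background correction (1.49, limma adjusted p = 0.0572), with median scaling (1.94, 0.0778), on the authors' normalised values (1.05, 0.0751), without the detection filter (2.18, 0.0759) and with the 6 arrays of PH 3 h and control fitted alone (2.18, 0.151). With the beadchip as a block the change was 2.09 (adjusted p = 0.142), with the replicate number as a block 2.18 (adjusted p = 0.0644), and within beadchips 3 and 4 it was 2.15 and 2.11 (adjusted p = 0.787 and 0.553). A further probe, ILMN_2590638, read 8.60, 5.90 and 7.43 at 3 h after PH against 4.85, 5.29 and 5.16 in the controls, with all 3 above the controls (2.21, limma adjusted p = 0.0235 when every probe was tested, where ILMN_3157568 was not called, adjusted p = 0.0514). Of the remaining probes ILMN_1229255 was detected on 3 arrays and ILMN_3078327 on none. After TCP Bcl2l11 read 7.40, 6.77 and 6.89 at 1 h and 7.45, 8.07 and 7.75 at 6 h, both groups above all controls, with changes of 0.40 and 1.13 that were not called (adjusted p = 0.933 and 0.336). With the 6 arrays of TCP 6 h and control fitted alone, the 6 h change was called (limma adjusted p = 0.00169). At 3 h after TCP the livers read 6.54, 7.24 and 6.94, all below the PH livers of that time, and the difference between PH and TCP was 1.90 (adjusted p = 0.102), and 2.62 without PH 3 h replicate 2 (limma adjusted p = 0.00887).

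Bmf, a BH3-only gene whose protein is held at the actin cytoskeleton, fell in both treatments. At 6 h after PH its single probe read 4.50, 4.56 and 4.47 and was detected on none, and at 3 h it read 4.6, 5.43 and 4.90 and was detected on 1. At 6 h after TCP it read 5.20, 5.30 and 5.03, and at 3 h 5.08, 5.15 and 5.37, with detection on 2 of 3 arrays at each time. In the control livers it read 6.67, 7.11 and 7.30 and was detected on 3 of 3 arrays. No treated liver of any group, those of 1 h included, reached the lowest control. Bmf fell by 2.05 at 3 h after PH (4.15-fold lower, SE 0.35, limma adjusted p = 0.000767). At 6 h the fitted change was -2.52 (SE 0.35, limma adjusted p = 4.41e-05), and no array of that group was above background. With its level set no lower than the lowest detected signal, the estimate was 3.79-fold lower, without an error of its own. After TCP Bmf fell by 1.83 at 3 h (3.56-fold lower, SE 0.35, limma adjusted p = 0.0105). At 6 h after TCP the change was -1.85 (3.61-fold lower, SE 0.35, limma adjusted p = 0.00303).

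At 1 h Bmf read 6.03, 6.55 and 4.72 after PH and 5.11, 6.07 and 5.19 after TCP, with changes of -1.26 (adjusted p = 0.107) and -1.57 (adjusted p = 0.0682) that were not called. The change after TCP was called with an offset of 50 (-1.07, limma adjusted p = 0.0268), without background correction (-0.64, 0.0271), with median scaling (-1.80, 0.0334) and with the 6 arrays of TCP 1 h and control fitted alone (-1.57, 0.0160). Without PH 1 h replicate 2, the highest of its group, the 1 h change after PH was -1.65 and was called (limma adjusted p = 0.0375). With a beadchip term the PH changes were -2.16 and -2.59 at 3 and 6 h (adjusted p = 0.00513 and 0.00219), and the TCP changes were -1.92 and -1.66 and were no longer called (adjusted p = 0.125 and 0.130). Within a beadchip the 6 h changes were -2.79 after PH (adjusted p = 0.0211) and -1.49 after TCP (adjusted p = 0.0480), both called, and the 3 h changes were -2.10 and -2.41 after PH and -1.59 after TCP, none called (adjusted p = 0.496, 0.113 and 0.158). Both PH calls and the 6 h TCP call held in all 6 fits that left out 1 array, and the 3 h TCP call was lost without control replicate 2 (-1.79, limma adjusted p = 0.0647). On the authors' normalised log2 values the Bmf changes were -0.39 and -0.47 at 3 and 6 h after PH and -0.36 at both times after TCP, with limma adjusted p of 2.18e-05 to 0.00276 but each below 1.5-fold, so none was called. PH and TCP livers did not differ in Bmf past the threshold at any time, with differences of 0.31 and -0.22 at 1 and 3 h. At 6 h all 3 PH livers were below the 3 TCP livers. The fitted difference of -0.66 (SE 0.35) was not called (adjusted p = 0.243). No PH array of that time was above background. With the PH level set no lower than the lowest detected signal, the estimate was 1.05-fold lower, without an error of its own.

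Bbc3 encodes PUMA, a BH3-only protein under the control of p53. Its brightest probe (ILMN_2920736) read 5.67, 8.25 and 5.57 at 6 h after PH, against 9.08, 9.0 and 8.91 in the controls. All 3 PH livers were below the controls, but replicate 2 lay far above the other 2 of its group. Bbc3 fell by 2.50 at 6 h (5.67-fold lower, SE 0.62, limma adjusted p = 0.00865). The call was lost without PH 6 h replicate 1 (-2.09, limma adjusted p = 0.0525) and with the beadchip as a block (-2.15, adjusted p = 0.103), and the change within beadchip 4 was -2.41 (adjusted p = 0.532). At 3 h after PH the values were 6.86, 9.36 and 6.92, so that replicate 2 lay above every control and the other 2 below. The change of -1.29 was not called (adjusted p = 0.252), and it was -2.11 and called without that replicate (limma adjusted p = 0.0126).

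After TCP Bbc3 read 7.85, 8.37 and 8.06 at 1 h, 7.91, 7.83 and 7.78 at 3 h, and the 6 h livers read 7.36, 6.87 and 6.87. Every TCP liver was below every control at each time. The changes of -0.90, -1.16 and -1.96 (SE 0.62 each) were not called in the model of 7 groups (adjusted p = 0.8, 0.460 and 0.0761), whose SE pools the spread of all groups. When the 6 arrays of TCP and control were fitted alone they were called at all 3 times (limma adjusted p = 0.0178, 0.00370 and 9.51e-06), and within beadchip 1 the 6 h change was -2.05 (limma adjusted p = 0.0115). At 6 h it was also called without background correction (-1.35, limma adjusted p = 0.0455), on the authors' normalised values (-0.92, 0.0373) and with the filter of the study's methods (-1.96, 0.0230). The difference between PH and TCP was -0.54 at 6 h (adjusted p = 0.650, 95% interval -1.86 to 0.78). At 1 h the PH livers read 9.02, 8.58 and 8.78, above the 3 TCP livers, and the difference of 0.70 was not called (adjusted p = 0.846). The other 2 probes of Bbc3, detected on 13 and 8 arrays, changed by -0.10 and -0.23 at 6 h after PH and were not called.

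Bad, whose protein is switched off by growth factor kinases, read 7.34, 8.28 and 7.83 at 6 h after PH, against 8.67, 8.78 and 8.74 in the controls. The 3 PH livers lay below the controls, and Bad fell by 0.91 (1.88-fold lower, SE 0.22, limma adjusted p = 0.00544). The call held with the beadchip as a block (-0.93, adjusted p = 0.0333) and in all 6 fits that left out 1 array (-1.14 to -0.67), but not on the authors' normalised values, where the change was below 1.5-fold (-0.45), and the change within beadchip 4 was -0.92 (adjusted p = 0.587). At 6 h after TCP Bad read 8.12, 8.17 and 8.19, also below all controls, with a change of -0.56 that was not called (adjusted p = 0.145). At 1 and 3 h its changes lay between -0.26 and 0.29 in both treatments.

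Bid, which caspase 8 cuts to carry a death receptor signal to the mitochondria, was called in no comparison. Its brighter probe (ILMN_3161878) ranged between 5.81 and 8.05 over all arrays. At 6 h after TCP it read 6.05, 5.99 and 6.26, all below 6.71, 6.55 and 6.85 in the controls, with a change of -0.60 (SE 0.35, adjusted p = 0.368), while at 6 h after PH it read 6.51, 7.28 and 6.70. The PH livers of 6 h were all above the TCP livers, by 0.73, which was not called (adjusted p = 0.205). Its other probe was detected on 3 arrays. Among the further BH3-only genes Bik, which acts at the endoplasmic reticulum, fell at 6 h after PH (-1.85, SE 0.38, limma adjusted p = 0.00152) and was lower after PH than after TCP (-1.95, SE 0.38, limma adjusted p = 0.00186).

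Between the treatments, 0 of the 9 members were called at 1 h (0.288% of all genes), with 0 at an unadjusted p under 0.05, and 0 of 9 at 3 h (4.25%), with 3 at an unadjusted p under 0.05 (Bcl2l1, Bcl2l11 and Mcl1). The 6 h call was that of Bcl2l1. For Bmf, Bbc3 and Bad no difference between PH and TCP was called at any time.

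**Figure D4:**
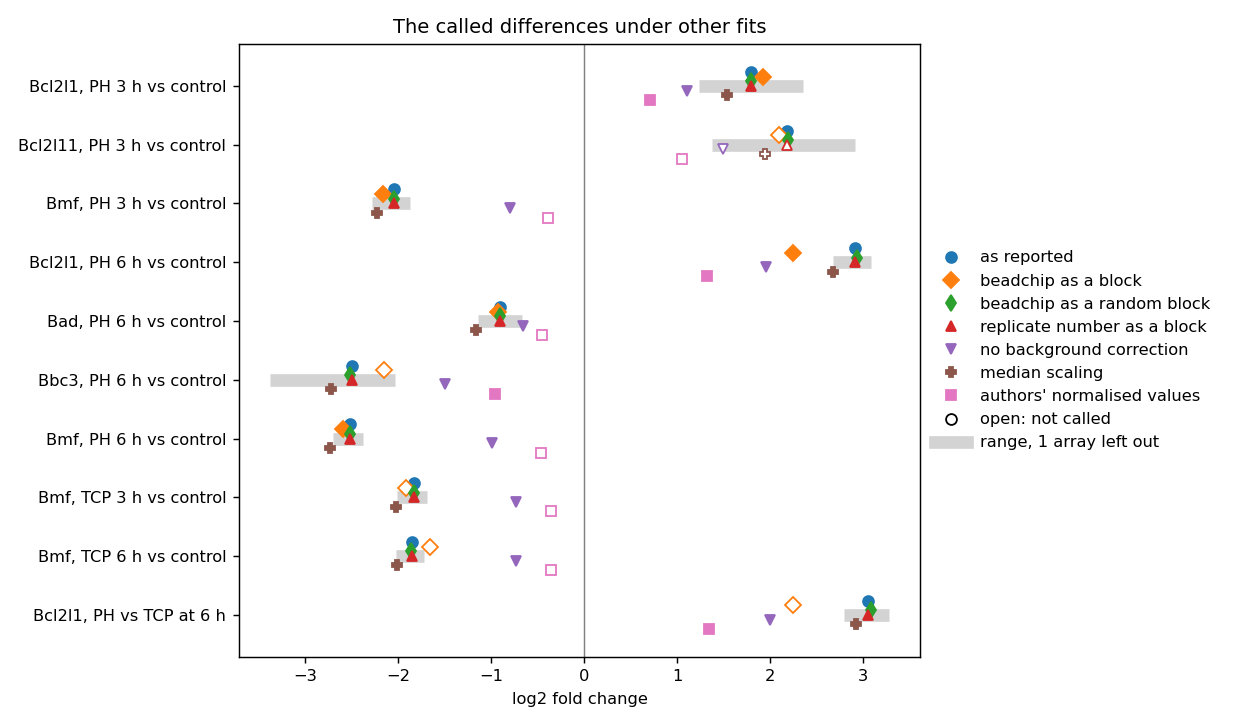
Log2 fold change (x axis) of each called difference of a member (rows) as reported and under 6 other fits or scalings, filled where called and open where not, with grey bars for the range over the 6 fits that each left out 1 array. The sign is the same in all fits drawn, and the authors' normalised values give the smallest changes.

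Upstream of the family, some genes listed for the death receptor pathway rose after PH. Of 12 listed 11 were tested, and 2 rose at 3 h (3.92% of all genes were called higher) and 3 rose and 1 fell at 6 h after PH (8.79% higher, 11.9% lower). After TCP 0 of 11 were called at any time (0.14%, 1.03% and 5.65% of all genes at 1, 3 and 6 h). The median change of the 11 was -0.18 and -0.06 at 3 and 6 h after PH. Tnfrsf12a, the receptor of TWEAK, rose by 4.11 at 3 h (SE 0.63, limma adjusted p = 0.000993) and by 5.21 at 6 h (limma adjusted p = 5.74e-05). Tnfrsf21 (death receptor 6) rose at 3 and 6 h by 1.01 and 1.42, and Tnfrsf1a, the main receptor of TNF, rose by 1.52 at 6 h (SE 0.33, limma adjusted p = 0.00238). The adaptor Fadd fell by 0.65 at 6 h (limma adjusted p = 0.0415), but this call was lost in each of the 6 fits that left out 1 array (-0.68 to -0.60, limma adjusted p of 0.0524 to 0.113) and with the beadchip term (-0.42, 0.314), and that of Tnfrsf21 at 3 h was lost without control replicate 2 (0.75, 0.0638). These 3 receptors were also higher after PH than after TCP at 6 h, by 4.02, 0.91 and 1.65 (limma adjusted p = 0.000714, 0.00955 and 0.00249). Of the 18 differences between PH and TCP that were called for genes of these lists, 0 were called with the beadchip as a block, and for the 3 receptors the adjusted p was then 0.239, 0.324 and 0.224. Of 46 called changes from control, 27 were called with that block and 23 in all fits that left out 1 array.

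Downstream of it, 17 of 22 listed caspases and regulators were tested, of which 2 rose and 3 fell at 6 h after PH and 2 fell at 6 h after TCP. Of all genes 8.79% were called higher and 11.9% lower at 6 h after PH, and 2.94% were called lower at 6 h after TCP. Casp9, the caspase of the apoptosome, fell at 6 h in both, by 1.36 after PH (SE 0.22, limma adjusted p = 0.000187) and by 1.01 after TCP (SE 0.22, limma adjusted p = 0.00957). Casp8, which acts at the death receptors, rose by 1.21 at that time after PH (SE 0.32, limma adjusted p = 0.00874), and Cycs (cytochrome c) rose by 0.75 (limma adjusted p = 0.00234). Casp6 fell by 0.80 (limma adjusted p = 0.0228). Leaving out 1 array ended the call of Casp9 after TCP for control replicate 1 and TCP 6 h replicate 3 (-0.93 to -0.89, limma adjusted p of 0.0533 to 0.0688), of Casp8 for PH 6 h replicate 1 (1.02, 0.0526), and of Casp6 for control replicate 2 and PH 6 h replicate 3 (-0.69 to -0.57, 0.101 to 0.123). In the beadchip model Casp9 after TCP (-1.11, adjusted p = 0.113) and Casp6 (-0.67, adjusted p = 0.104) were not called. Birc5, the survivin gene that is used in mitosis, fell in every comparison with control but TCP 1 h, by 1.56 to 2.33, and the controls themselves spread widely (7.76 ± 1.12, SD, n = 3). Without control replicate 1 or 2 its calls at 1 h after PH and at 3 and 6 h after TCP were lost, as were the first without PH 1 h replicate 2 or 3 and the last without TCP 6 h replicate 2 or 3, with changes of -2.17 to -1.89, -2.10 to -1.92 and -1.39 to -1.15 (limma adjusted p of 0.0622 to 0.139, 0.0829 to 0.0849 and 0.151 to 0.195). In the beadchip model Birc5 was called at 3 h after PH alone (-1.94, adjusted p = 0.0369).

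Among transcription factors known to act on BCL2 family genes, more were called higher than lower after PH. Of 16 listed 12 were tested, with 2 rising at 1 h (0.533% of all genes called), 4 at 3 h (3.92% called higher) and 6 at 6 h (8.79% called higher) after PH and 1 falling at 6 h (11.9% called lower). After TCP 1 rose at each time (Cebpb, by 1.2, 1.12 and 1.06, with 0.14%, 1.03% and 5.65% of all genes called). The median change of the 12 was 0.60 and 0.77 at 3 and 6 h after PH, beside -0.05 and -0.08 over all genes, and 0.41 and 0.36 at these times after TCP, beside -0.02 and -0.02. The list was chosen with earlier results of these data known, so these counts and medians describe it and are not a test. Stat3, known to act on Bcl2l1, rose by 1.69 at 6 h after PH (SE 0.38, limma adjusted p = 0.00408), and Rela, the NF-kB subunit, rose by 0.78 (SE 0.15, limma adjusted p = 0.000975). Jun, known to act on Bcl2l11, rose by 4.0 at 3 h after PH (SE 0.59, limma adjusted p = 0.000705), and Foxo3, known to act on Bcl2l11 and Bbc3, rose by 1.70 (SE 0.50, limma adjusted p = 0.0418). Cebpb and Hif1a rose by 1.81 and 1.05 at that time (limma adjusted p = 0.000135 and 0.0229). The Hif1a call held in 1 of 6 fits that left out 1 array, the one without PH 3 h replicate 2 (1.23). The part of these factors in the changes of the members was not tested. Stat3 was higher after PH than after TCP at 6 h by 1.36 (limma adjusted p = 0.0279), which was lost without PH 6 h replicate 1 or 3 or TCP 6 h replicate 1 or 2 (0.92 to 1.45, limma adjusted p of 0.0566 to 0.126). The call of Foxo3 held in 1 of 6 fits that left out 1 array, the one without PH 3 h replicate 1, and was otherwise lost (0.98 to 1.82, limma adjusted p of 0.105 to 0.132), as it was with the beadchip term (1.76, 0.109). The Cebpb calls after TCP were lost at 1 h when either of control replicates 1 and 2 or any TCP array of that time was left out (1.05 to 1.23, limma adjusted p of 0.0808 to 0.183), and at 3 h when 1 of control replicates 1 and 2 and TCP 3 h replicate 2 was left out (0.97 to 1.13, 0.0510 to 0.0849). At 1 and 3 h they were also lost with the beadchip as a block (adjusted p = 0.515 and 0.114), and that of 6 h was kept (1.38, adjusted p = 0.0220).

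Other p53 response genes were called in both directions at 3 and 6 h after PH. Of 7 listed and tested 3 rose and 1 fell at 3 h after PH (7.44% of all genes called), and 1 rose and 1 fell at 6 h (20.7%), and after TCP 0 of 7 were called at any time (0.14%, 1.03% and 5.65% of all genes). Cdkn1a, the cell cycle inhibitor p21, rose by 5.03 and 5.44 at 3 and 6 h after PH (SE 0.83, limma adjusted p = 0.00204 and 0.000370). At 3 h Trp53inp1 rose by 2.46 (limma adjusted p = 0.00115) and Mdm2 by 1.06 (limma adjusted p = 0.01). The Mdm2 call was lost without PH 3 h replicate 3 (0.75, limma adjusted p = 0.101). Ccng1, a p53 target, fell by 0.99 and 0.93 at 3 and 6 h. Its 3 h call was lost without PH 3 h replicate 3 (-0.77, limma adjusted p = 0.0901), and its 6 h call with the beadchip term (-0.81, 0.0656). Between the treatments at 6 h, 3 of 7 were called higher after PH (4.65% of all genes), and none with the beadchip as a block. Trp53 itself was not among the genes tested. Of 5 genes that govern the turnover of the MCL1 and BIM proteins 4 were tested, and 1 was called lower at 6 h after PH and after TCP. Of all genes 11.9% and 2.94% were called lower in these comparisons. The gene was Btrc, a subunit of a ubiquitin ligase, which fell after PH (-0.87, limma adjusted p = 0.00565) and after TCP (-1.14, limma adjusted p = 0.00343). Neither Btrc call was kept with the beadchip as a block (-0.82 and -0.99, adjusted p = 0.0538 and 0.135).

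Over the 21 arrays the genes whose values ran most closely with those of Bcl2l1 were Sgms1, Ly6d and Mapk6 (Pearson r 0.940, 0.938 and 0.929). For Bcl2l11 they were Tmem41b, Rabgef1 and Maff (0.851, 0.825 and 0.813). Those closest to Bmf were Cbx2, Zmynd8 and Abtb1 (0.876, 0.820 and 0.807), to Bad Ctdsp1, Plxnb2 and Ssbp3 (0.935, 0.935 and 0.925), and to Bbc3 Hdac5, Zmym6 and Rtn4rl1 (0.904, 0.902 and 0.891). The arrays share their 7 groups and 4 beadchips, so these are descriptions of likeness over the groups.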

How the data were processed

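Per the labels and the study's methods, total RNA of single livers was amplified, biotin labelled and hybridised to Illumina mouse beadchips. The authors deposited a table of signal intensity, with a detection p-value for each of 45281 probes, not normalised between arrays, and a table of their own log2 values, quantile normalised by the authors in BeadStudio and BRB Array Tools. The methods name the WG-6 beadchip, whose probe number fits the table, and the labels name MouseRef-8. The deposited detection p-value was used to filter probes.

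From the deposited intensity values, neqc of limma 3.58.1 in R 4.3.3 subtracted background with an offset of 16, quantile normalised and took log2. Kept were probes with 1 gene symbol in the platform annotation that were detected (p under 0.05) on 3 arrays or more (17970 of 34885 probes with 1 symbol), and the brightest probe stood for a gene. The fit was lmFit with 7 groups and eBayes with trend and robust options. P-values were adjusted over 11442 genes (Benjamini-Hochberg). The number of arrays limits the precision. The fit was tested on simulated data, in which 200 genes had been changed. Where no array of a group was above background, the fold was set against the lowest signal among their detected probes. Such a fold is an estimate without an error of its own, not a lower bound on the true change. Replicate numbers run over the groups, but samples of 1 number did not deviate together, with correlations of -0.106 to 0.134 over 27 pairs of which 1 was over 0.1, so they share a number only. The alternatives were other scalings, background settings and filters, the authors' log2 values, every probe by itself, beadchip and replicate blocks, and leaving out single arrays. The members and the gene lists were chosen with earlier results of these data known. All 10 members were named by rule, and 3 neighbours for each called member. Of the called genes of the lists only some were named, and these were not always the ones with the largest change. No 2 arrays held identical values. Promoter windows are from RefSeq. RNA of the same mice was also sequenced for miRNAs, which was not analysed here.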

Additional observations from a re-analysis of the deposited data

Results flagged for a closer look

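Bcl2l1 was flagged because its level differed between the treatments by a test of the difference itself: at 6 h the PH livers read 9.80, 9.24 and 9.0, against 6.34, 6.76 and 5.79 in the TCP livers, a log2 difference of 3.05 (SE 0.44, limma adjusted p = 0.000139, higher in 3 of 3 PH livers). The PH and TCP livers of 6 h lay on different beadchips, and with the beadchip as a block the difference was 2.25 (adjusted p = 0.163). The part of the beadchips in it was not tested further.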

How the results depend on the processing

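The number of members called depended on the settings as follows, with every called change keeping its sign. On the authors' normalised values it was 1 at 3 h and 2 at 6 h after PH and 0 at 3 h after TCP, and at 6 h after TCP 1, where Bmf lost its call and Bbc3 gained one, and in fits of only the 2 groups compared it was 1 at 3 h after PH and after TCP 2, 2 and 3 at 1, 3 and 6 h. The methods' filter left 1 member (Bbc3) and 737 genes to test, and with it the counts were 0 and 1 at 3 and 6 h after PH, 0 at 3 h after TCP and 0 between the treatments at 6 h. With the beadchip as a fixed block it was 2 at 3 h and 3 at 6 h after PH, 0 at 3 h and 0 at 6 h after TCP and 0 between the treatments at 6 h. Within a beadchip it was 0 at 3 h after PH on beadchip 3 and on beadchip 4, 1 at 6 h after PH, 0 at 3 h after TCP and 2 at 6 h after TCP. At 1 h after TCP it was 1 (Bmf) with an offset of 50, without background correction or with median scaling. At 6 h after TCP it was 2 without background correction, and between the treatments at 3 h it was 1 with median scaling, with the stricter detection filter (p under 0.01) or with every probe tested by itself. Under median scaling the median change of all genes against control was between -0.24 and -0.11.

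In the fits that left out 1 array the count ran from 0 to 1 at 1 h, 1 to 4 at 3 h and 3 to 4 at 6 h after PH, was 0 at 1 h, 0 to 1 at 3 h and 1 at 6 h after TCP, and between the treatments was 0 at 1 h, 0 to 3 at 3 h and 1 at 6 h. With the replicate number as a block the count was 0, 2 and 4 after PH, 0, 1 and 1 after TCP, and 0, 0 and 1 between the treatments. That block, which pairs nothing here, ended the call of Bcl2l11 at 3 h (adjusted p = 0.0644) and changed no other call. Over all settings but the left-out arrays, 1065 of 1107 changes of single members kept their call or lack of one, 28 lost it, 14 gained it and 0 reversed. A fit without the trend and robust options, chosen after seeing the data, moved no count. The checks of the listed genes were also chosen after seeing the data. The cause of these changes was not tested, apart from the methods' filter, under which 8 members were not tested. Bcl2, Bak1 and, after treatment, Bmf lay near background, which limits what can be said of their size of change.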
